A study of Mus musculus with 9 samples.

Results

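Small noncoding RNAs of the liver were followed through 362 probe sets of an expression array, chosen by name from the 28815 probe sets measured. A probe set, the group of oligonucleotides that reports on 1 target, was a member when its annotation gave a single gene symbol that began with Snord or Snora (small nucleolar RNAs, snoRNAs), Scarna (small Cajal body RNAs), Vaultrc (vault RNA), Rnu (U-type RNAs) or Mir and a digit (microRNAs, miRNAs). The members carried 351 symbols. They comprised 33 Snord, 23 Snora, 4 Scarna, 1 Vaultrc, 5 Rnu and 296 Mir probe sets. The Mir class included 7 probe sets of 4 long host transcripts (Mir17hg, Mir99ahg, Mir670hg and Mir100hg), which left 289 probe sets on miRNA hairpins. The 2 probe sets of Snora30, of Snord118 and of Scarna17 gave identical values in each pair and stand for 1 target each.

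The RNA came from the livers of female mice on a C57BL/6J background aged 15 to 16 months, and 3 mice were measured in each of 3 groups, with 1 array per mouse. WTCR mice were wild type and were fed a chow diet under short-term calorie restriction (CR). Dgat1-/-AL mice were homozygous for the Dgat1 knockout and fed chow ad libitum, and the wild-type WTAL mice, also on chow ad libitum, were the controls of both. The study asked whether CR and loss of DGAT1, which makes triglycerides from diacylglycerol, act through common pathways in the liver.

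Small nucleolar RNAs guide the chemical modification of ribosomal RNA. Box C/D RNAs (Snord) direct 2'-O-methylation and box H/ACA RNAs (Snora) direct the conversion of uridine to pseudouridine, while Scarna RNAs do the same for spliceosomal RNAs in Cajal bodies. In mammals most snoRNAs are cut out of the introns of host genes, many of which encode ribosomal proteins or translation factors, and most miRNAs are likewise cut from longer primary transcripts. Vault RNAs are short transcripts of RNA polymerase III that are found in part in the vault particle. The array was hybridized with labelled total RNA, so a signal can come from the mature RNA, a precursor or the host transcript, and these cannot be told apart here.

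Of the miRNA hairpin genes, 262 of 287 were matched to RefSeq entries. Sequences are shown for Mir677, Mir340, Mir568 and Mir505, called in at least 1 comparison, because these miRNAs carry the hairpin results. The sequence of Mir122, also called, is not shown here. They are RefSeq sequences of build GRCm38.p6. In the hairpins the capitals mark the annotated mature arms. Mir677 lies at chr10:128085286-128085363 on the plus strand, within Atp5b and on its strand. Mir340 lies at chr11:50069702-50069799 on the plus strand, within Rnf130 and on its strand. Mir568 lies at chr16:43640655-43640737 on the plus strand.
Mir677 hairpin: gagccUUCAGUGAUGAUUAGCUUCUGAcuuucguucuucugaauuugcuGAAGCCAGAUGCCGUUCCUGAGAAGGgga
Mir340 hairpin: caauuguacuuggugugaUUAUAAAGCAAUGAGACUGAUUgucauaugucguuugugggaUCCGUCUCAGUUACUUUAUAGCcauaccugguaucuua
Mir568 hairpin: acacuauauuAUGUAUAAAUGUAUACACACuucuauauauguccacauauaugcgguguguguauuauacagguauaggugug

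The mature miRNAs of these genes and of Mir505 (chromosome X, minus strand) are given with the seed, bases 2 to 8, in capitals, since the seed pairs with target mRNAs. No other member among those listed in the table carried any of these 7 seeds.
miR-677-5p: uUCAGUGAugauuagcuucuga
miR-677-3p: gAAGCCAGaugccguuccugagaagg
miR-340-5p: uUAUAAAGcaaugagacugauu
miR-340-3p: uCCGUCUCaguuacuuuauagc
miR-505-3p: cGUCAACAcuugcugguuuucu
miR-505-5p: gGGAGCCAggaaguauugauguu
miR-568: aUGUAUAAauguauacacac

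Seeds were shared among the abundant liver miRNAs that were measured. Mir103-1, Mir103-2 and Mir107 shared the seed of their 3p arms, the 2 Mir194 genes shared 1 mature 5p sequence, and Mir192 shared its 5p seed with Mir215. These are shown because none of their probe sets was called in any comparison below, in contrast to Mir122.
miR-103-3p: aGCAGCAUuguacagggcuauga
miR-107-3p: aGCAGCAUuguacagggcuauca
miR-194-5p: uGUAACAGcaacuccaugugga
miR-192-5p: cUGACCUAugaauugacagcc

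The arrays were compared on the log2 scale with limma, a linear model fitted to all 28815 probe sets. The study's rule was used to call a probe set, namely a change of more than 1.3-fold (0.38 on the log2 scale) with an unadjusted p below 0.05. The p printed beside each result is adjusted across the whole array (Benjamini-Hochberg). The mice were separate animals, and 3 arrays in each group limit the precision of every value. The 5 measured hepatocyte markers averaged log2 signals of 13.0 to 13.3 over the 9 arrays. The log2 signal of Dgat1 was 8.90, 8.76 and 8.56 in WTCR, 6.13, 5.84 and 5.39 in Dgat1-/-AL, and 7.86, 5.67 and 8.05 in WTAL. At this 1 probe set the array labelled WTAL replicate 2 therefore goes against its label. Whether the label is wrong was not tested, and comparisons with WTAL are given with and without this array. Small RNA signals were dim on this array: 94 of the 362 members, 58 of the 289 hairpins and 30 of the 56 snoRNA probe sets lay above the median signal of all probe sets.

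Compared with WTAL livers, 8 members were called higher in WTCR livers and 1 was called lower, where the shares of all probe sets were 4.25% and 3.81%. The share called, 2.49% of the members, was below the 8.06% of all probe sets. The 8 were Snord35a, Snord37, Snord49a, Snord95, Snora70, Mir677 and both probe sets of Scarna17, and the 1 lower was Vaultrc5. After adjustment over all probe sets Snord35a and Vaultrc5 remained, against 1.49% of all probe sets higher and 1.34% lower. The 3 arrays of each group did not overlap at 18 higher and 15 lower members, against 11.2% and 8.44% of all probe sets. If the array labelled WTAL replicate 2 was left out, 5 members were higher and 1 was lower. The shares of all probe sets called in that fit are not given here. 

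In the Dgat1-/-AL livers the counts against WTAL were 0 higher and 9 lower, with 0.465% and 0.76% of all probe sets. The share called, again 2.49% of the members, stood beside 1.23% of all probe sets. These were Vaultrc5, Snord14e, Snord42b, Snord96a, Snora31, Mir122, Mir340, Mir505 and Mir677. None passed the adjusted p, which was 0.96 to 0.97 for all 9, nor did any probe set of the array in this comparison (0.0% in either direction), where 1316 (4.57%) were under an unadjusted p of 0.05 in limma. Groups did not overlap at 6 higher and 19 lower members, against 3.16% and 3.86% of all probe sets. If the array labelled WTAL replicate 2 was left out, 8 members were lower and 0 higher, again without the shares of all probe sets in that fit.

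WTCR was also compared with Dgat1-/-AL directly, a comparison that uses no WTAL value. Here 14 members, of 13 genes, were called higher and 2 lower in WTCR, against 4.66% and 3.93% of all probe sets. In all, 4.42% of the members and 8.59% of all probe sets were called. Groups did not overlap at 25 higher and 13 lower members, against 9.05% and 7.1% of all probe sets. Of the 14, 6 also passed the adjusted p (Snord35a, Snord37, Snord95, Snord96a, Mir122 and Mir677), against 1.63% of all probe sets, and 0 of the lower ones did, against 1.23%. Same-numbered arrays of these 2 groups deviated together in the data. With the number as a block in the 6 arrays alone, a fit chosen after seeing the data, 22 members were higher and 2 lower. The share of all probe sets called in that fit is not given here, so a rise particular to the members cannot be read from this count. The comparisons with WTAL share the WTAL arrays. Between them, 2 of the 9 members called in WTCR and 2 of the 9 called in Dgat1-/-AL were the same, Vaultrc5 (lower in both) and Mir677 (higher in WTCR, lower in Dgat1-/-AL).

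**Figure D1:**
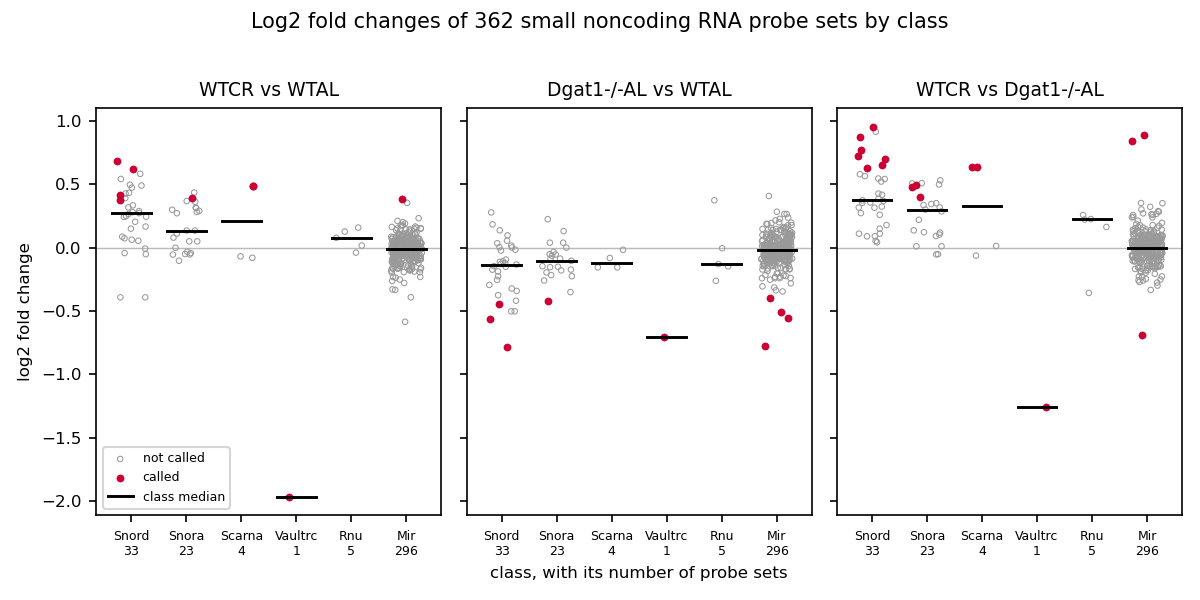
Log2 fold change (y axis) of each of the 362 probe sets in the 3 comparisons (panels), by class along the x axis. Red points are called, open grey points are not, and black bars are class medians. The Snord and Snora points of WTCR against Dgat1-/-AL lie almost wholly above 0, the Mir points lie around 0 in every panel, and the single Vaultrc point lies below 0 in all 3.

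Vaultrc5, the only vault RNA on the list, changed most of all members in WTCR livers. Its log2 signal was 9.07, 10.06 and 9.76 in WTCR, 10.28, 11.30 and 11.09 in Dgat1-/-AL, and 11.61, 11.54 and 11.63 in WTAL. The 3 groups did not overlap, with WTCR lowest, Dgat1-/-AL between and WTAL highest, and the WTAL arrays lay close together (SD 0.04, against 0.51 in WTCR and 0.53 in Dgat1-/-AL).

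In WTCR livers Vaultrc5 stood 3.91-fold below WTAL, a log2 fold change of -1.97 with an SE of 0.29 (3 mice per group, adjusted p = 0.015 from limma). In Dgat1-/-AL it stood 1.63-fold below WTAL (-0.70 ± 0.29, SE, adjusted p = 0.97). The WTCR call held without any 1 array (-2.18 to -1.68). The Dgat1-/-AL call ended in 6 of 9 such fits (-0.91 to -0.40), namely without any 1 of the 3 WTAL arrays, without WTCR replicate 3, or without Dgat1-/-AL replicate 1 or 3. With the array labelled WTAL replicate 2 left out, the log2 fold changes were -1.99 in WTCR and -0.73 in Dgat1-/-AL.

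Set directly against Dgat1-/-AL, WTCR had a Vaultrc5 signal 2.40-fold below it (-1.26 ± 0.29, adjusted p = 0.061), and this call held in 9 of 9 fits that left out 1 array. Between arrays with the same replicate number, a pairing that the labels do not state, the difference was -1.22, -1.24 and -1.33. Both groups' replicate 1 had the lowest value of its group.

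Markers of some other liver cells also differed between the groups. Of 8 measured markers of Kupffer cells and macrophages, 3 were called lower in each of WTCR and Dgat1-/-AL, and their mean log2 signal per array was 7.69 to 8.31 in WTCR, 7.82 to 8.29 in Dgat1-/-AL and 7.98 to 8.71 in WTAL. Of 4 markers of B and plasma cells, 4 were called lower in WTCR and 1 in Dgat1-/-AL, with means of 4.22 to 4.31 in WTCR, 4.39 to 4.98 in Dgat1-/-AL and 5.05 to 5.71 in WTAL. The B cell means thus fell in the same order as Vaultrc5 without overlap. At each of the 4 markers alone, however, WTCR and Dgat1-/-AL overlapped, and none was called between these groups. The array means of no other cell type listed showed this order without overlap. Of the 3 called markers of Kupffer cells and macrophages, Adgre1 (-1.13 in WTCR and -0.85 in Dgat1-/-AL) and Clec4f (-0.76 and -0.50) followed it. C1qa (-0.53 and -0.61) did not, and the array means of this cell type overlapped between the groups. Of 5 markers of sinusoidal endothelium 2 were called higher and 1 lower in Dgat1-/-AL and 0 in WTCR, and of 4 markers of stellate cells 2 were called lower in WTCR and 0 in Dgat1-/-AL. None of 4 T cell markers or 4 cholangiocyte markers was called. The part of these markers in the Vaultrc5 difference was not tested, and in whole liver fewer cells of a type and less RNA per cell cannot be told apart.

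Of the proteins of the vault, only Mvp, the major vault protein, had a probe set with a single symbol among the 3 listed. Its log2 signal was 7.9, 7.5 and 7.6 in WTCR, 7.6, 7.0 and 7.0 in Dgat1-/-AL, and 7.5 on each of the 3 WTAL arrays. It was not called against WTAL, with fold changes of 0.19 for WTCR and -0.27 for Dgat1-/-AL, and was called higher in WTCR than in Dgat1-/-AL (0.46), the opposite sign to the RNA. Of 24 genes of RNA polymerase III and snRNA transcription, 3 were called higher and 1 lower in WTCR, 0 in Dgat1-/-AL, and 3 higher and 2 lower in WTCR against Dgat1-/-AL. Maf1, a repressor of RNA polymerase III, was the most changed of them in WTCR. It had 8.4, 8.6 and 8.6 in WTCR, 8.1, 7.9 and 8.1 in Dgat1-/-AL, and 7.7, 7.8 and 8.0 in WTAL, a log2 fold change of 0.73 in WTCR (adjusted p = 0.012 from limma) and of 0.24 in Dgat1-/-AL, where it was not called. Polr3e (0.38) and Polr3f (0.40), subunits of the polymerase, were also called higher in WTCR, and Polr3k, another subunit, was called lower (-0.40). Another probe set of Polr3e was not called in WTCR (0.14).

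**Figure D2:**
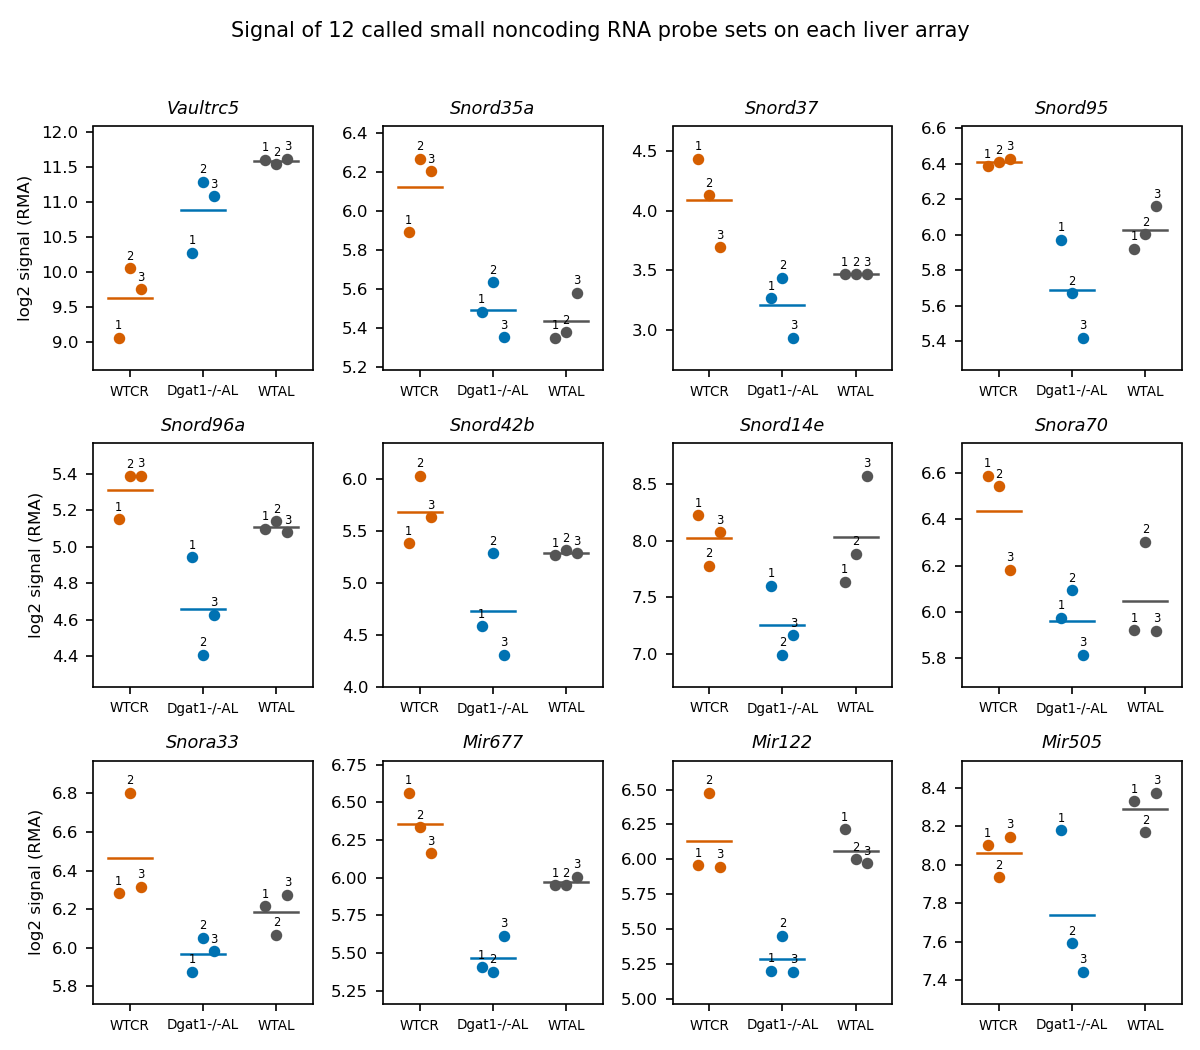
Log2 signal (y axis, a separate range in each panel) of 12 called members on each array, by group along the x axis. The number beside each point is the replicate and lines are group means. Vaultrc5 runs upward over WTCR, Dgat1-/-AL and WTAL without overlap, and the snoRNAs and Mir677 are highest in WTCR or lowest in Dgat1-/-AL.

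The box C/D snoRNAs were higher in WTCR than in Dgat1-/-AL at each of their 33 probe sets, with a median log2 fold change of 0.37, and 7 of the 33 were called higher. At the box H/ACA snoRNAs the fold change was above 0 in 21 of 23, with a median of 0.30, and 3 of 23 were called higher. Over all probe sets 51.8% were above 0, 4.66% were called higher and the median was 0.01. The 2 probe sets that were not above 0 were Snora20 (-0.05) and Snora7a (-0.05). None of the 56 snoRNA probe sets was called lower in WTCR than in Dgat1-/-AL.

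Each group lay on its own side of WTAL. In WTCR the median log2 fold change was 0.27 for Snord (28 of 33 above 0, 4 called higher) and 0.13 for Snora (16 of 23 above 0, 1 called higher). In Dgat1-/-AL it was -0.13 for Snord (9 of 33 above 0, 3 called lower) and -0.10 for Snora (5 of 23 above 0, 1 called lower). Of all probe sets, 50.8% were above 0 in WTCR and 49.1% in Dgat1-/-AL. Neither comparison called a snoRNA in the other direction. The shares of all probe sets called in these directions were 4.25% for WTCR and 0.76% for Dgat1-/-AL. Of 3 measured long RNAs retained in the nucleus, Malat1 was also called lower in Dgat1-/-AL (-0.46), with 12.07, 11.63 and 11.95 in WTCR, 11.85, 11.74 and 11.18 in Dgat1-/-AL, and 12.05, 11.90 and 12.19 in WTAL. The other 2 were not called, and the part of nuclear RNA content in the snoRNA values was not tested. With the array labelled WTAL replicate 2 left out, the Snord medians were 0.24 for WTCR and -0.19 for Dgat1-/-AL, and the Snora medians were 0.17 and -0.10.

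The class averages moved from mouse to mouse by as much as between groups, however. Over the 56 snoRNA probe sets, the mean difference from each probe set's WTAL mean was -0.11, 0.45 and 0.29 on the WTCR arrays, -0.45, 0.20 and -0.18 on the Dgat1-/-AL arrays, and 0.10, -0.03 and -0.07 on the WTAL arrays. The groups overlapped: WTCR replicate 1 lay below all 3 WTAL arrays, and Dgat1-/-AL replicate 2 lay above them. The median SD within groups was 0.32 for snoRNA probe sets, against 0.13 for all probe sets and 0.11 for miRNA hairpins. Averages over all probe sets stayed within 0.01 of the WTAL mean on every array. Quantile normalization, which gives all arrays 1 distribution, fixes this in advance, so it is no contrast to the snoRNA values.

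Within the same replicate number, a pairing that the labels do not state, WTCR exceeded Dgat1-/-AL by a median of 0.29, 0.29 and 0.46 over the snoRNA probe sets. In these pairs 51, 40 and 50 of 56 were above 0, where all probe sets had 47.8%, 51.3% and 45.8%. Leaving out WTCR replicate 2 brought the Snora median in this comparison down to 0.078, and the Snora median of Dgat1-/-AL against WTAL turned to 0.06 without Dgat1-/-AL replicate 1. For Snord the medians of WTCR against Dgat1-/-AL were 0.27 to 0.61 without any 1 array. The number of members called higher in that comparison was 28 without WTCR replicate 1, the low array of its group, and also 28 without Dgat1-/-AL replicate 2, the high array of its group. The shares of all probe sets called in those fits are not given here, so a rise particular to the members cannot be read from these counts.

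**Figure D3:**
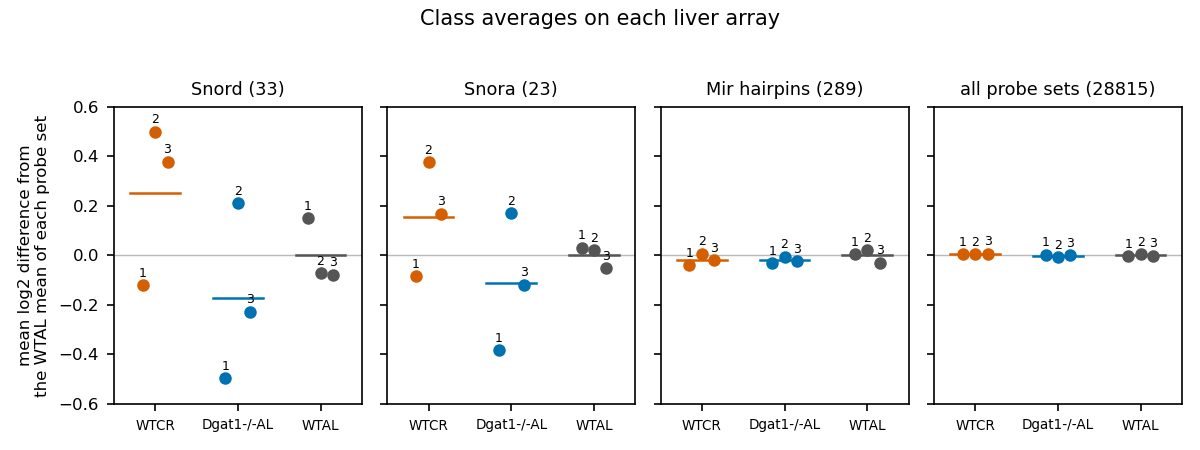
Mean over a class of the log2 difference of each probe set from its WTAL mean (y axis) on each array, by group along the x axis, for Snord, Snora, miRNA hairpins and all probe sets. The number beside each point is the replicate and lines are group means. The snoRNA points spread from -0.50 to 0.50 with the groups overlapping, while hairpins stay near 0. All probe sets also stay near 0, which the normalization of the arrays fixes in advance.

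Snord35a, a box C/D RNA of an intron of Rpl13a, was the snoRNA with the firmest change with CR. Its log2 signal was 5.89, 6.27 and 6.21 in WTCR, 5.49, 5.64 and 5.35 in Dgat1-/-AL, and 5.35, 5.38 and 5.58 in WTAL. All WTCR arrays lay above the other 6, and Dgat1-/-AL and WTAL overlapped. WTCR exceeded WTAL 1.61-fold (0.69 ± 0.12, SE, adjusted p = 0.024) and Dgat1-/-AL 1.55-fold (0.63 ± 0.12, adjusted p = 0.031). Both calls held in 9 of 9 fits that left out 1 array. Box C/D RNAs of the Rpl13a locus are known from work on lipotoxic stress in cultured cells.

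Snord33, a box C/D RNA from the same host, had 7.98, 9.10 and 9.08 in WTCR, 7.81, 8.91 and 7.88 in Dgat1-/-AL, and 8.66, 8.21 and 8.29 in WTAL. Its groups overlapped, and it was not called in any comparison.

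Rack1, a ribosome-associated scaffold protein gene, holds Snord95 and Snord96a. Snord95 had 6.39, 6.41 and 6.43 in WTCR, 5.97, 5.67 and 5.42 in Dgat1-/-AL, and 5.92, 6.00 and 6.16 in WTAL. The WTCR arrays were above the other 6, and the Dgat1-/-AL arrays were for the most part below WTAL. It was higher in WTCR than in WTAL (0.38 ± 0.13, SE, adjusted p = 0.19), a call at the fold threshold that was lost on leaving out WTAL replicate 1, WTAL replicate 2 or WTCR replicate 3. Against Dgat1-/-AL it was higher by 0.72 ± 0.13 (adjusted p = 0.026 from limma), and this held in 9 of 9 fits.

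Snord96a had 5.15, 5.39 and 5.39 in WTCR, 4.94, 4.41 and 4.63 in Dgat1-/-AL, and 5.10, 5.14 and 5.08 in WTAL. Dgat1-/-AL was the group that stood apart, below both others. It was lower there than in WTAL (-0.45 ± 0.13, SE), which ended without Dgat1-/-AL replicate 2, and WTCR exceeded Dgat1-/-AL by 0.65 ± 0.13 (adjusted p = 0.036 from limma).

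Snord37 lies within Eef2, which encodes a translation elongation factor. Its signal was dim, at 4.44, 4.13 and 3.70 in WTCR, 3.27, 3.44 and 2.93 in Dgat1-/-AL, and 3.47 on each of the 3 WTAL arrays. Every value lay below the median signal of all probe sets (5.83). Equal values in a group occurred at 20 of the 362 members, 18 of them hairpins. Snord37 was higher in WTCR than in WTAL (0.62 ± 0.18, SE, adjusted p = 0.13) and than in Dgat1-/-AL (0.88 ± 0.18, adjusted p = 0.044), and both calls held in 9 of 9 fits.

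Snord42b, within Rpl23a, had 5.38, 6.03 and 5.63 in WTCR, 4.59, 5.29 and 4.31 in Dgat1-/-AL, and 5.26, 5.31 and 5.29 in WTAL. It gave the highest fold change of any member between WTCR and Dgat1-/-AL (0.95 ± 0.24, SE, adjusted p = 0.078). Its call against WTAL in Dgat1-/-AL (-0.56 ± 0.24) ended in 6 of 9 fits, among them the one without the array labelled WTAL replicate 2 (-0.55).

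Snord14e belongs to the U14 RNAs, which are needed for the processing of 18S ribosomal RNA, and lies within Hspa8. It had 8.22, 7.78 and 8.07 in WTCR, 7.60, 6.99 and 7.16 in Dgat1-/-AL, and 7.64, 7.89 and 8.58 in WTAL. Dgat1-/-AL lay below both other groups without overlap. The log2 fold change was -0.78 ± 0.25 (SE) against WTAL, and WTCR exceeded Dgat1-/-AL by 0.77 ± 0.25 (adjusted p = 0.16). Each call ended without Dgat1-/-AL replicate 2 and held without each of the other 8 arrays. The call against WTAL also ended in the methods' t-test and with the replicate block in the 2 groups alone.

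Snord87, which lies within both Mcmdc2 and Snhg6, was called only between WTCR (4.14, 4.75 and 4.85) and Dgat1-/-AL (3.60, 4.12 and 3.94), with WTAL at 4.44, 3.88 and 4.01. The difference was 0.70 ± 0.22 (SE, adjusted p = 0.15), and it ended without WTCR replicate 3. Snord49a, within the noncoding 2410006H16Rik, was called higher in WTCR (5.90, 6.18 and 6.22) than in WTAL (5.37, 5.83 and 5.88). That call (0.41 ± 0.18, adjusted p = 0.32) ended in 4 of 9 fits. Snord118, the U8 RNA that vertebrates need to mature the large ribosomal subunit RNA, went against its class in WTCR with -0.39 at both of its identical probe sets, and was not called. It had 5.16, 6.55 and 5.33 in WTCR, 4.69, 5.93 and 6.08 in Dgat1-/-AL, and 6.49, 5.93 and 5.79 in WTAL, a wide spread within the first groups.

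Box H/ACA RNAs were called at 4 genes. Snora70, within Rpl10, had 6.59, 6.54 and 6.18 in WTCR, 5.98, 6.09 and 5.82 in Dgat1-/-AL, and 5.92, 6.30 and 5.92 in WTAL. WTCR exceeded Dgat1-/-AL by 0.48 ± 0.14 (SE, adjusted p = 0.13), which held in 9 of 9 fits, and exceeded WTAL as well (0.39 ± 0.14, adjusted p = 0.23), which ended in 4 of 9. WTCR and WTAL overlapped at WTCR replicate 3.

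Snora33, within Rps12, had 6.28, 6.80 and 6.32 in WTCR, 5.88, 6.05 and 5.98 in Dgat1-/-AL, and 6.22, 6.07 and 6.28 in WTAL, so that the ranges did not overlap, though WTCR and WTAL nearly touched. Only WTCR against Dgat1-/-AL was called (0.50 ± 0.14, SE, adjusted p = 0.099), and this ended without WTCR replicate 2. Snora44, within Snhg12, was called there as well (0.40 ± 0.17, adjusted p = 0.29). Its call ended in 5 of 9 fits that left out 1 array and with the replicate number as a block over all 9 arrays (0.40 ± 0.19). Snora31, within Tpt1, was lower in Dgat1-/-AL (5.19, 4.79 and 4.72) than in WTAL (5.24, 5.19 and 5.53) by 0.42 on the log2 scale, with WTCR at 5.28, 5.19 and 5.19. This call ended without WTAL replicate 3, Dgat1-/-AL replicate 2 or Dgat1-/-AL replicate 3, in the methods' t-test and with the block in the 2 groups alone.

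Among the RNAs of the Cajal body, Scarna17 was called and Scarna8 and Scarna13 were not. Scarna17 had 10.803, 11.326 and 11.683 in WTCR, 10.643, 10.803 and 10.445 in Dgat1-/-AL, and 11.003, 10.688 and 10.668 in WTAL. WTCR replicate 1 lay within the range of both other groups. The fold change was 0.48 ± 0.21 (SE, adjusted p = 0.32) against WTAL, a call that ended in 7 of 9 fits, and 0.64 ± 0.21 (adjusted p = 0.16) against Dgat1-/-AL. Scarna13 differed by -0.08 in WTCR and -0.02 in Dgat1-/-AL, and Scarna8 by -0.07 and -0.08.

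The U-type RNAs were not called in any comparison. Rnu3a, which despite its name encodes the U3 box C/D RNA of early ribosomal RNA cleavage, had 5.23, 6.47 and 6.28 in WTCR, 5.13, 6.17 and 6.01 in Dgat1-/-AL, and 6.01, 6.04 and 6.04 in WTAL. On the snoRNA averages replicate 1 was the lowest of its group in WTCR (-0.11) and in Dgat1-/-AL (-0.45), but Dgat1-/-AL replicate 3 (-0.18) lay below WTCR replicate 1. For Rnu3a, replicate 1 of WTCR and of Dgat1-/-AL lay far below the other 7 arrays. Rnu12, the U12 RNA of the minor spliceosome, had its lowest values on the same arrays: 6.49, 7.33 and 7.13 in WTCR, 6.24, 7.17 and 6.87 in Dgat1-/-AL, and 7.08, 6.88 and 6.76 in WTAL. The log2 fold changes of all 5 (Rnu3a, Rnu12, Rnu5g, Rnu6 and Rnu7) were -0.04 to 0.16 in WTCR and -0.26 to 0.37 in Dgat1-/-AL.

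The position of the snoRNAs in host genes was examined next. Of 51 snoRNA genes, 50 lay within another gene in the RefSeq annotation of GRCm38.p6, whose tables give no strand for the snoRNAs. The 24 snoRNA probe sets within ribosomal protein genes had medians of 0.29 in WTCR against WTAL, -0.11 in Dgat1-/-AL against WTAL and 0.36 in WTCR against Dgat1-/-AL, with 23 of 24 above 0 in the last. Those in other protein-coding genes (17 probe sets) had 0.05, -0.15 and 0.30, and those in noncoding genes (10 probe sets) had 0.29, -0.06 and 0.35. In WTCR against Dgat1-/-AL, 4, 4 and 1 members of these kinds were called higher, where 4.66% of all probe sets were.

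For 26 snoRNAs the host, 1 of 22 genes, had probe sets of its own. Host medians lay close to those of the snoRNAs: 0.18 for hosts and 0.20 for snoRNAs in WTCR, -0.11 and -0.13 in Dgat1-/-AL, and 0.34 and 0.34 in WTCR against Dgat1-/-AL. Higher calls at 1 or more probe sets were made for 7 hosts in WTCR and for 9 in WTCR against Dgat1-/-AL, and a lower call for 1 host, Rps12, in Dgat1-/-AL. A host with any higher call was counted as higher, so a lower call at another of its probe sets was not counted. Over all probe sets the shares called in these directions were 4.25%, 4.66% and 0.76%. Hosts had up to 13 probe sets each, so counts of hosts are not on the same scale as these shares. Gene by gene there was little match. Over the 26 snoRNAs the Pearson correlation of snoRNA and host fold changes was 0.05 in WTCR and 0.04 in Dgat1-/-AL. In WTCR against Dgat1-/-AL it was -0.14, with -0.55 for Snord and 0.28 for Snora. Nop56, which encodes a core protein of box C/D particles, was called higher in WTCR than in WTAL (0.50) and than in Dgat1-/-AL (0.79), with 8.09, 8.02 and 8.10 in WTCR, 7.36, 7.29 and 7.20 in Dgat1-/-AL, and 7.25, 7.80 and 7.66 in WTAL. Its Snord57 differed by -0.04 and 0.09. Hspa8, host of Snord14e, averaged -0.22 over its 3 probe sets in Dgat1-/-AL, and -0.10 in WTCR against Dgat1-/-AL where Snord14e was 0.77. Eef2 was called higher in WTCR (0.44), as was Snord37.

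**Figure D4:**
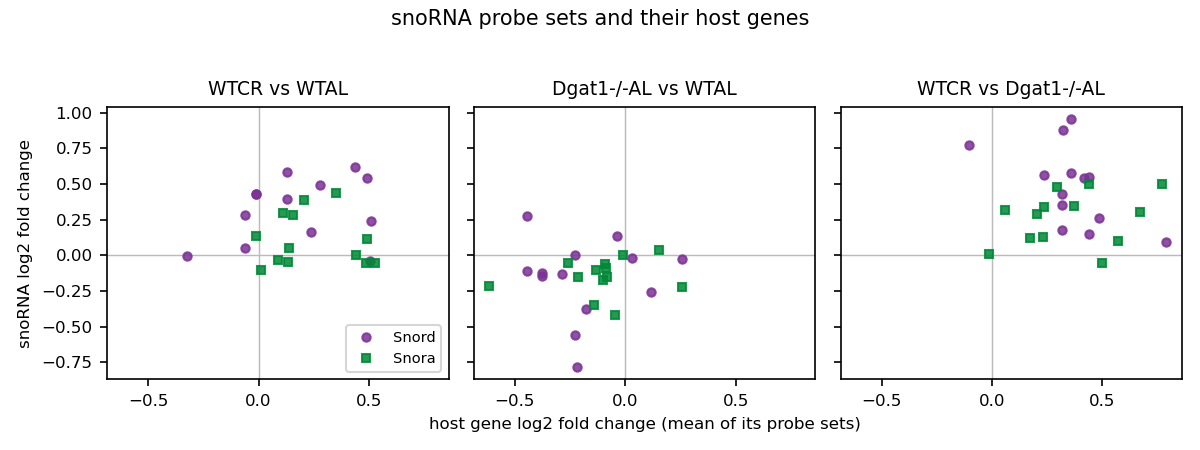
Log2 fold change of 26 snoRNAs (y axis) against that of the host gene, averaged over the host's probe sets (x axis), in the 3 comparisons, for Snord (circles) and Snora (squares). Most points of WTCR against Dgat1-/-AL lie above and to the right of 0, without lining up along a diagonal.

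The protein partners of snoRNAs were described from a list of 17 symbols, of which 16 genes were measured. In WTCR 3 were called higher than in WTAL and 0 lower, in Dgat1-/-AL 0 were higher and 1 lower, and in WTCR against Dgat1-/-AL 3 were higher and 0 lower. Nop56 and Nolc1, a nucleolar phosphoprotein that binds snoRNPs, and Nufip1, a snoRNP assembly factor, were the 3 in both comparisons with WTCR. Nop58, another core protein of the C/D particle, was lower in Dgat1-/-AL (6.76, 7.28 and 7.01) than in WTAL (7.46, 7.36 and 7.65), with a log2 fold change of -0.47. Fbl and Snu13, core proteins also on the list, were not called in any comparison. The mean over the list per array was 7.66 to 7.70 in WTCR, 7.50 to 7.55 in Dgat1-/-AL and 7.55 to 7.59 in WTAL. The WTCR means were above the other 6, and those of Dgat1-/-AL and WTAL met at 7.55.

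Among long noncoding hosts of small RNAs, 5 of 17 listed genes had probe sets with a single symbol. Snhg5, a snoRNA host, had 6.90, 7.12 and 6.60 in WTCR, 6.20, 6.00 and 6.08 in Dgat1-/-AL, and 6.30, 6.22 and 6.43 in WTAL, and was called higher in WTCR than in WTAL (0.56) and than in Dgat1-/-AL (0.78). Gas5, which holds a row of box C/D RNAs, had 4 probe sets. At the one with the lowest fold change in Dgat1-/-AL the values were 6.67, 6.79 and 6.68 in WTCR, 5.80, 5.43 and 4.96 in Dgat1-/-AL, and 6.29, 6.30 and 6.76 in WTAL. It was lower in Dgat1-/-AL than in WTAL by 1.05 on the log2 scale and differed by 1.32 between WTCR and Dgat1-/-AL (adjusted p = 0.017 from limma). Of its other 3 probe sets, 1 was called, higher in WTCR than in either group.

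The miRNA hairpins as a class gave median log2 fold changes of -0.01 in WTCR against WTAL, -0.01 in Dgat1-/-AL against WTAL and 0.00 in WTCR against Dgat1-/-AL. In WTCR 1 of the 289 was called higher and 0 lower, in Dgat1-/-AL 0 higher and 4 lower, and in WTCR against Dgat1-/-AL 2 higher and 1 lower. The shares called were 0.35% in WTCR against WTAL and 1.04% in WTCR against Dgat1-/-AL. Both were below the 8.06% and 8.59% of all probe sets. In Dgat1-/-AL against WTAL 1.38% of the hairpins were called, beside 1.23% of all probe sets. All of these hairpins were lower, where 0.76% of all probe sets were called lower. Arrays of the groups did not overlap in 8 higher and 14 lower hairpins in WTCR against WTAL, where 11.2% and 8.44% of all probe sets did not overlap.

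Mir122, the most abundant miRNA of hepatocytes, was the hairpin lowest in Dgat1-/-AL. Its log2 signal was 5.96, 6.48 and 5.95 in WTCR, 5.20, 5.45 and 5.19 in Dgat1-/-AL, and 6.22, 6.00 and 5.97 in WTAL. The Dgat1-/-AL arrays lay below the other 6 with a gap, and WTCR and WTAL overlapped. Dgat1-/-AL stood 1.72-fold below WTAL (-0.78 ± 0.15, SE, adjusted p = 0.96), and WTCR exceeded Dgat1-/-AL 1.80-fold (0.85 ± 0.15, adjusted p = 0.025). In WTCR against WTAL the difference was 0.07 ± 0.15. Both calls held in 9 of 9 fits that left out 1 array, with -0.81 in Dgat1-/-AL when the array labelled WTAL replicate 2 was left out.

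Mir677, whose hairpin is printed above, separated all 3 groups. It had 6.56, 6.34 and 6.16 in WTCR, 5.41, 5.38 and 5.61 in Dgat1-/-AL, and 5.95, 5.95 and 6.01 in WTAL. The WTAL values fell between those of the other groups. WTCR exceeded Dgat1-/-AL 1.85-fold (0.89 ± 0.11, SE, adjusted p = 0.0082), the lowest adjusted p among the members. Dgat1-/-AL was lower than WTAL by 0.51 on the log2 scale, which held in 9 of 9 fits. In WTCR it was higher than in WTAL by 0.38 ± 0.11 (adjusted p = 0.11), at the fold threshold, and this call ended without WTAL replicate 1, without the array labelled WTAL replicate 2 (0.37) or without WTCR replicate 1.

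Atp5b, the gene of an ATP synthase subunit that holds Mir677 on the same strand, had 13.2, 13.2 and 13.4 in WTCR, 12.8, 12.8 and 12.9 in Dgat1-/-AL, and 12.7, 12.9 and 12.7 in WTAL. It was called higher in WTCR than in WTAL (0.48) and than in Dgat1-/-AL (0.43). In Dgat1-/-AL it differed from WTAL by 0.04, where Mir677 was called lower.

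The remaining called hairpins differed in 1 comparison each. Mir505 had 8.10, 7.93 and 8.15 in WTCR, 8.18, 7.59 and 7.44 in Dgat1-/-AL, and 8.33, 8.17 and 8.37 in WTAL, and was lower in Dgat1-/-AL than in WTAL (-0.55 ± 0.17, SE). Dgat1-/-AL replicate 1 lay within the WTAL range, and the call held in 9 of 9 fits that left out 1 array but ended in the methods' t-test. Mir340 was dim, at 2.64, 2.70 and 2.70 in WTCR, 2.67, 2.64 and 2.54 in Dgat1-/-AL, and 3.02, 2.94 and 3.08 in WTAL. It was lower in Dgat1-/-AL (-0.40 ± 0.07), which was lost on leaving out WTAL replicate 3 or Dgat1-/-AL replicate 3, and in WTCR its difference of -0.33 (adjusted p = 0.033) stayed under the fold threshold. Rnf130, its host, differed by -0.11 in WTCR and 0.01 in Dgat1-/-AL. Mir568 had 4.93, 4.29 and 4.39 in WTCR, 5.62, 5.09 and 4.96 in Dgat1-/-AL, and 4.91, 4.52 and 5.01 in WTAL, and was the hairpin called lower in WTCR than in Dgat1-/-AL (-0.69 ± 0.22 with an adjusted p of 0.16). That call ended without WTCR replicate 2 or 3.

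Of 23 symbols of liver and immune miRNAs known from background, 15 were measured, and Mir122 was the single one called. The family members with a shared seed gave log2 fold changes in WTCR and Dgat1-/-AL of -0.06 and 0.04 (Mir103-1), -0.24 and -0.34 (Mir103-2), and 0.10 and -0.06 (Mir107). Mir192 had 4.42, 4.32 and 4.17 in WTCR, 4.35, 4.59 and 4.16 in Dgat1-/-AL, and 4.19, 4.84 and 4.32 in WTAL. These groups overlapped. Mir34a, whose gene p53 activates, differed by 0.19 in WTCR and by 0.27 in Dgat1-/-AL, under the fold threshold in both. Mir33, within the sterol regulator gene Srebf2 and an inhibitor of cholesterol efflux, differed by -0.17 and -0.05.

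Clusters of neighbouring miRNA genes were described as units. Across 12 groups of 3 or more members that lay within 10000 bases of each other, no miRNA was called in any comparison. In the imprinted region of chromosome 12 a group of 30 neighbours, some of them within Mirg, had a median of -0.04 in WTCR (-0.19 to 0.09) and -0.02 in Dgat1-/-AL (-0.24 to 0.28), and a group of 7 neighbours within Rtl1 had medians of -0.03 and -0.02. The 5 measured members of the Mir17 cluster had medians of 0.06 and -0.03. For 118 hairpins nested in 89 hosts with probe sets of their own, the hosts had medians of -0.01 in WTCR and 0.01 in Dgat1-/-AL, with 3 and 1 hosts called higher and 2 and 0 called lower. Of all probe sets, 4.25% and 0.465% were called higher and 3.81% and 0.76% lower. These hosts were counted as for the snoRNAs. Apart from Atp5b, hosts called in WTCR held hairpins that were not called. Tango2, for example, was higher by 0.76 and its Mir185 by 0.02, and Zranb2 was lower (-0.62) and its Mir186 had 0.07.

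Of 16 measured genes of miRNA processing, Dicer1, which cuts the hairpin into the mature miRNA, was called higher in WTCR than in WTAL (0.57, adjusted p = 0.16). Its signal was 8.29, 7.63 and 8.01 in WTCR, 7.96, 7.43 and 7.45 in Dgat1-/-AL, and 7.38, 7.46 and 7.38 in WTAL. The other 15 genes were not called, and 0 of 16 were called in Dgat1-/-AL against WTAL or in WTCR against Dgat1-/-AL. Of 15 genes of spliceosomal snRNPs, 0 were called against WTAL in either group, and Snrpe, a core Sm protein, was higher in WTCR than in Dgat1-/-AL (0.51).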

How the data were processed

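Per the labels and the study's methods, total RNA from flash-frozen livers was hybridized to Affymetrix Mouse Gene 1.0 ST arrays. The authors made the deposited log2 values with RMA (background correction, quantile normalization and 1 summary value per probe set). The RMA version and genome build are not given in the sources used here. Quantile normalization sets all arrays to 1 distribution, so a change common to most RNAs cannot be seen. All 28815 probe sets were used, 0 per-sample columns were left unused, and gene symbols came from the platform annotation. A further 116 probe sets named a member among several symbols and were left out of the 362.

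Groups came from the sample titles. In R 4.3.3, limma 3.58.1 (lmFit, eBayes) was fitted to all 9 arrays with the 3 group means and no block, sharing 1 variance per probe set, and p was adjusted over all probe sets. The fit was tested on simulated data. The text names every Vaultrc, Scarna and Rnu member, up to 8 called Snord, Snora and Mir members per comparison whose groups do not overlap, groups of 3 or more neighbours, background miRNAs and up to 4 called genes per list. Snora31, Mir505, Snord118, Snord57, Snora20, Snora7a, Mir185, Mir186 and the hosts Eef2, Hspa8, Rps12, Tango2 and Zranb2 were added after their values were seen. The members and lists were chosen with earlier results of these data known.

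Same-numbered arrays of WTCR and Dgat1-/-AL deviated together (r = 0.48, 0.25 and 0.21 over all probe sets), so the number was taken to pair these groups, a link seen in the data and not stated by the labels. Alternatives left out each array and changed the block, variance model, test, arrays fitted, scaling, brightness filter, call rule and averaging of probe sets. A block with only the groups compared was added after seeing the data. Host genes and neighbours came from RefSeq (GRCm38.p6). Some host genes and a neighbouring member are not reported here.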

Additional observations from a re-analysis of the deposited data

How the results depend on the processing

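Direction was kept in the called members and in the Snord shifts under every alternative that was run on them, and of the alternative values of single called members 476 kept the call and 85 ended it. Members that were not called were not refitted one by one. Without 1 array, the members called in WTCR against WTAL numbered 5 to 16 (4 to 15 higher, 1 to 2 lower), in Dgat1-/-AL against WTAL 7 to 12 (0 to 1 higher, 7 to 11 lower), and in WTCR against Dgat1-/-AL 14 to 31 (11 to 28 higher, 2 to 3 lower). The highest totals were without WTCR replicate 1 (16 and 30) and without Dgat1-/-AL replicate 2 (31), and the lowest in WTCR was without WTCR replicate 3. In WTCR against WTAL 5 were higher without WTCR replicate 2 or without WTAL replicate 2 or 3. The Snora shift between WTCR and Dgat1-/-AL was 0.078 to 0.40 without 1 array. At an adjusted p under 0.05 the counts were 2 (1 higher, 1 lower), 0 (0 lower) and 6 (6 higher, 0 lower). The methods' t-test on 2 groups gave 5 (4 higher), 4 (4 lower) and 10 (9 higher, 1 lower). Over brighter probe sets alone there were 4 (4 lower) in Dgat1-/-AL and 8 (7 higher, 1 lower) in WTCR against Dgat1-/-AL, since fewer members are tested. With only the arrays of the groups compared, 2 were lower in WTCR than in WTAL.

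With the replicate block over 9 arrays, 2 members were lower in WTCR than in WTAL, 1 was higher in Dgat1-/-AL than in WTAL, and WTCR against Dgat1-/-AL kept 14 higher and 2 lower. With the block in the 2 groups alone, an alternative chosen after seeing the data, 2 were lower in WTCR than in WTAL and 22 were higher in WTCR than in Dgat1-/-AL. Apart from the adjusted p, the shares of all probe sets called under the alternatives are not given here, so their counts stand without a background. WTAL shares only numbers with the others (r = -0.23, 0.05 and -0.07 with WTCR, -0.32, -0.09 and -0.23 with Dgat1-/-AL).

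The causes of these moves were not tested. Dim signals, 3 mice per group and the mouse-to-mouse swing of the snoRNA signals limit what can be read from single members, and the array labelled WTAL replicate 2 bears on all comparisons with WTAL.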

Other observations

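Probe sets that name several genes were left out above and give a further view of the same RNAs. In 50 of them every symbol met the naming rule. Their median log2 fold change was -0.01 in WTCR against WTAL and 0.00 in Dgat1-/-AL against WTAL, with 1 called higher in each and 0 lower, and 2 were higher in WTCR than in Dgat1-/-AL. In the other 66 some of the symbols met it and others did not. In WTCR against Dgat1-/-AL 63 of these 66 lay above 0, with a median of 0.09, and 11 were called higher and 0 lower, where 51.8% of all probe sets were above 0 and 4.66% were called higher. With WTAL as the control, WTCR had 2 of them called higher, and Dgat1-/-AL had 5 called lower, against 4.25% and 0.76% of all probe sets. The signals of the genes that share such a probe set cannot be told apart.

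Over the 9 arrays the members most like Vaultrc5 among the 361 others were hairpins. Mir15a, within Dleu2, had 6.67, 7.42 and 7.31 in WTCR, 6.91, 7.82 and 7.48 in Dgat1-/-AL, and 7.98, 7.58 and 7.59 in WTAL, and it was not called in WTCR against WTAL (-0.59, adjusted p = 0.34 from limma). Mir363 (-0.19) and Mir693 (-0.25) were the others and were not called.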
